A study of Mus musculus with 17 samples.

Results

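The motile cilia and oviduct genes are 40 mouse genes, 39 of them taken as genes of the motile cilium and 1, Ovgp1, a product of the oviduct. They were chosen by name, with their high signal in Lhr-null ovaries already known, so that contrast is described here and not tested. Of the 40 genes, 37 had a probe with a single gene symbol among the 19057 such genes of the array, and each is represented by its brightest probe. Tekt2, Tekt4 and Lrrc23 had none and were not analysed here. A probe was kept for testing where the detection p was under 0.05 on at least 4 of the 17 arrays, and 27 of the 37 genes passed. Of these, 9 needed the Lhr-null arrays to pass, so a high value there was required for them to be tested, and 4 of the 9 (Mdh1b, Spag6l, Ccdc113 and Fam166c) were detected on no other array.

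Total RNA from ovaries of female mice, 12 weeks old and of an FVB/N x C57/BL6 cross, was measured on 17 Illumina MouseWG-6 bead arrays. Of these, 5 were from Fshr-CAM/Lhr-null mice, which carry the Fshr mutant and are null for Lhr, the receptor of luteinising hormone. A further 4 were from Lhr-null mice with wild type Fshr, 4 from Fshr-CAM mice with wild type Lhr and 4 from wild type mice. The labels call Fshr-CAM only an Fshr mutant, the receptor of follicle-stimulating hormone, and neither the letters CAM nor the promoter behind the allele is explained in the sources used here. They do not say whether each array is 1 animal or a pool, so p-values measure the spread between these samples, which may be technical.

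A motile cilium beats by means of an axoneme, a ring of doublet microtubules around a central pair. Dynein arms slide the doublets past each other, and radial spokes and the central pair control the sliding. The same axoneme drives the sperm tail, so most of its genes are active both in multiciliated epithelium, such as that of the oviduct, and in spermatids. FOXJ1 and the RFX factors switch on these genes, and RFX proteins bind the X-box, a sequence whose arms read GTTGCC or close to it. OVGP1, or oviductin, is a glycoprotein secreted by the non-ciliated cells of the oviduct, while the protamine PRM1 and the lactate dehydrogenase LDHC are made in male germ cells.

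RefSeq promoters of build GRCm38.p6, from 250 bases before to 50 after each start, were found for 35 of the 40 genes, 42 promoters in all. Cfap299, Rsph1, Rsph4a, Tppp3 and Foxj1 were not matched. The letters GTTGCC, on either strand, stood in 22 of the 42 promoters (52.4%, from 21 genes) and in 12.5% of 32851 promoters of the same length. In all, 13 spellings were searched on both strands, GTTGCC is singled out after the counts were seen, and no test is given. The full palindromic X-box was in 1 of the 42 (Pifo) and in 0.451% of all promoters. Another 7 spellings, looser or partial forms of the X-box of 10 to 14 letters that overlap one another and mostly can include GTTGCC, were each in 1 to 7 of the 42 (2.38% to 16.7%) and in 0.271% to 6.27% of all. The forkhead letters GTAAACA were in 4.76% and 3.65%, CCAAT in 28.6% and 37.4%, and TATAAA in 7.14% and 13.6%. The palindromic oestrogen response element was in 0 of the 42 and 0.07% of all.

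Shown here are the 150 bases before the start site of 8 genes whose promoter holds GTTGCC in that window, with the matches in capitals on either strand, and of Ovgp1, which holds none. The 8 were picked for holding a match, so they are not a sample of the 42, and for Pifo the 1 of its promoters with a match is given. A match is a description of the letters and not of binding.

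Dynlrb2, chr8:116504865-116505014, strand plus: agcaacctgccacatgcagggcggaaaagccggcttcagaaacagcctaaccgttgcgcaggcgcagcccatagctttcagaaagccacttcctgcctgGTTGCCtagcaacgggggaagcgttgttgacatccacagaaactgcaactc

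Fam183b, chr11:58801961-58802110, strand minus: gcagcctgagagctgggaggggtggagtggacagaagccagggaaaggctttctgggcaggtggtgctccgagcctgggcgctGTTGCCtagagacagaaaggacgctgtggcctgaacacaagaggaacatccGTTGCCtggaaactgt

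Pifo, chr3:106001498-106001647, strand minus: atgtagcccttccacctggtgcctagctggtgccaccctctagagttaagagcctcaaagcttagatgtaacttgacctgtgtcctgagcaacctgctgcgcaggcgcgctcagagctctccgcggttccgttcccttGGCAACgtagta

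Mdh1b, chr1:63730319-63730468, strand minus: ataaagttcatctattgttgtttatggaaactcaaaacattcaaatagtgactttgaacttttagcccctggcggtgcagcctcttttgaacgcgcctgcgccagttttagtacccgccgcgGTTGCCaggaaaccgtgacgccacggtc

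Ccdc113, chr8:95533950-95534099, strand plus: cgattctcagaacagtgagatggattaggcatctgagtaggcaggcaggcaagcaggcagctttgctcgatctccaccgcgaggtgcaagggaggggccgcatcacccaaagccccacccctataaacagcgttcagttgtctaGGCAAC

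Tekt1, chr11:72361883-72362032, strand minus: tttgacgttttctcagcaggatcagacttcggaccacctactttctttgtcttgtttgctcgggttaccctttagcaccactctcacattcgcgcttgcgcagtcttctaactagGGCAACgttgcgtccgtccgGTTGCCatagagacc

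Mns1, chr9:72438379-72438528, strand plus: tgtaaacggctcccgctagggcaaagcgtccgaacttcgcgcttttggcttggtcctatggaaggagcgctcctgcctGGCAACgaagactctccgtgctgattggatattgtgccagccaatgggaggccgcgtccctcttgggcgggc

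Fam166c, chr5:30465927-30466076, strand plus: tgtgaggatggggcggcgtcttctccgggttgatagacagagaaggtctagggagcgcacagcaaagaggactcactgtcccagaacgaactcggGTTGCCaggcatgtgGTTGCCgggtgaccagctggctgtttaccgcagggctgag

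Ovgp1, chr3:105973652-105973801, strand plus: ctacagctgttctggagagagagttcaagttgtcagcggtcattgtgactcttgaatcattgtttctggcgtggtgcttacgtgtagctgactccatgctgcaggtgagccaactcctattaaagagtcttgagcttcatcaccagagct

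In Mdh1b the match began 28 bases before it, in Dynlrb2 51 bases before it and in Ccdc113 6 bases before it, while Tekt1, Fam183b and Fam166c each held 2. Ovgp1 and Pifo, the gene for a protein of ciliary basal bodies, are neighbours on chromosome 3 with 0 coding genes between them, as are Spaca9 and Ak8 on chromosome 2.

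Signals are given as log2 after background correction and quantile normalisation. On this scale Dnah9, detected on no array, lay between 4.35 and 4.85, so values near these mark a gene that was not seen above background. Arrays had 19366 to 22006 of 45281 probes detected. Fshr was at 9.71 to 11.70 on the Fshr-CAM/Lhr-null arrays, 4.51 to 9.90 on the Lhr-null arrays, 11.10 to 11.87 on the Fshr-CAM arrays and 8.33 to 9.14 on the wild type arrays. The library labelled Fshr-CAM/Lhr-null replicate 4 held the 9.71, and its 4 group mates had 11.40 to 11.70. The Lhr transcript has no probe under its symbol Lhcgr and so gave no check of the Lhr-null labels. Whether the library labelled Fshr-CAM/Lhr-null replicate 4 carries the genotype on its label was therefore not settled.

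Lhr-null replicates 1 and 2 stood apart. Replicate 1 detected 8 of 8 pituitary genes at a mean of 13.37, against 4.37 to 4.57 on the other arrays, and 5 of 10 ovary genes at 5.70, against 9.0 to 10.76. Growth hormone, Gh, named after its values were seen, was at 14.90 there and at most 4.60 elsewhere. This array was therefore left out of the fits, in which each genotype has 1 mean, and its values are shown beside them. Replicate 2 detected 28 of 30 sperm and spermatid genes at a mean of 7.71, against 5 to 15 detected and means of 4.84 to 5.42 elsewhere. Y-linked genes lay at 4.53 to 4.72 on every array, with 0 or 1 of 5 detected. The summed signal of the sperm genes was 1039 to 1447 in Fshr-CAM/Lhr-null, 1753 to 22900 in Lhr-null, 1044 to 2597 in Fshr-CAM and 1071 to 1936 in wild type ovaries.

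**Figure D1:**
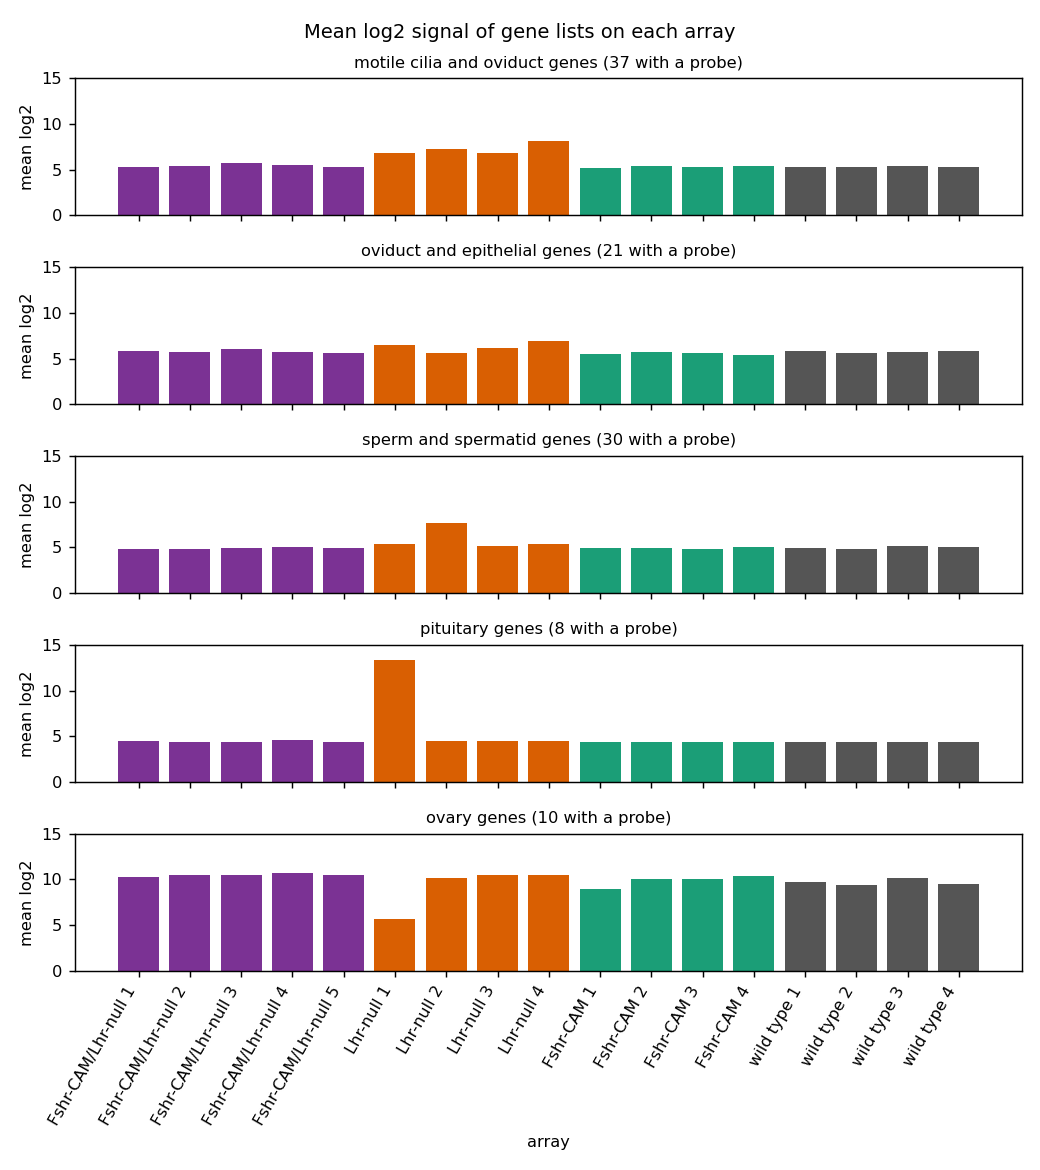
Mean log2 signal (vertical axes, from 0) of 5 gene lists on each of the 17 arrays (horizontal axis), 1 bar per array and coloured by genotype. Pituitary genes stood high on Lhr-null 1 (13.37), sperm genes on Lhr-null 2 (7.71), and motile cilia and oviduct genes on all 4 Lhr-null arrays, most on Lhr-null 4 (8.14).

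The motile cilia and oviduct genes were high in Lhr-null ovaries and stood near the level of the arrays with Lhr in Fshr-CAM/Lhr-null ovaries. Their median log2 signal over the 27 tested genes was 5.25, 5.34, 5.82, 5.40 and 5.08 on the Fshr-CAM/Lhr-null arrays and 7.60, 8.48, 7.63 and 9.27 on the Lhr-null arrays, replicates 1 to 4. It was 4.96 to 5.31 on the Fshr-CAM arrays and 5.11 to 5.33 on the wild type arrays. All 4 Lhr-null medians were thus above every other array, and Fshr-CAM/Lhr-null replicate 3 was the highest of the rest. The 7.60 is from Lhr-null replicate 1, the array with pituitary genes at 13.37 and ovary genes at 5.70. The median over all 12260 genes was 7.63 to 7.72 on every array. Quantile normalisation brings all arrays to 1 distribution, so this median gives the scale and is no check of the arrays. In bulk tissue, more cells of a type and more RNA per cell cannot be told apart.

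**Figure D2:**
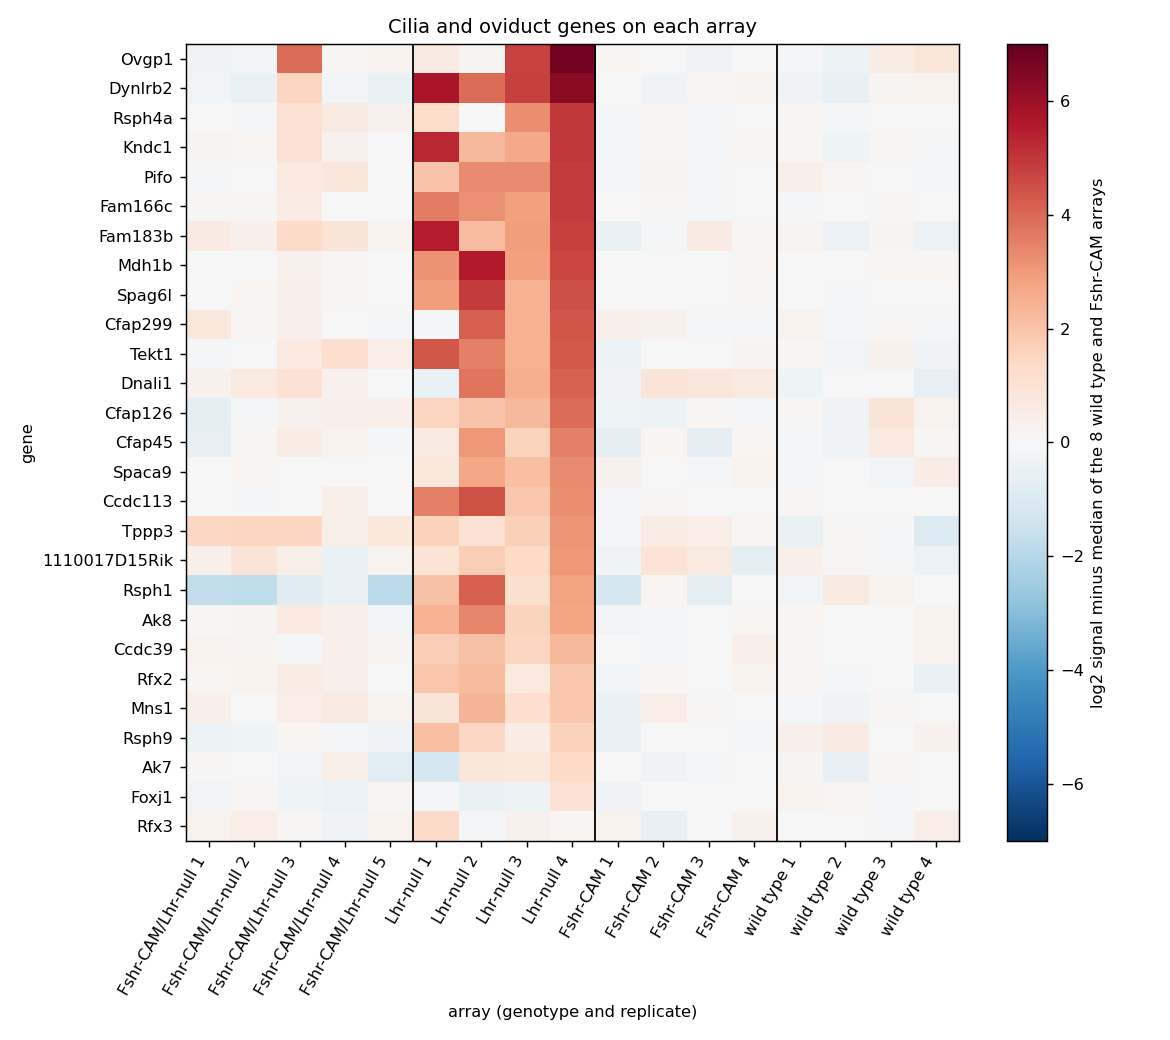
Log2 signal minus the median of the 8 wild type and Fshr-CAM arrays (colour) for each of the 27 tested motile cilia and oviduct genes (rows) on each array (columns), genotypes divided by black lines. The 4 Lhr-null arrays are red in most rows but differ in which, and Ovgp1 is also raised on Fshr-CAM/Lhr-null 3.

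Lhr-null replicates 2 to 4 exceeded wild type by a median of 2.64 log2 over the 27 genes, against 0.00 over all genes, and by 2.37 with replicate 1 included. Differences ran between 0.00 for Foxj1 and 5.08 for Dynlrb2. In 18 of the 27, all 4 Lhr-null arrays lay above all 4 wild type arrays, as in 5.02% of all genes, a share that cannot be read as support because the genes were chosen on these arrays. Replicates 1 to 4 had 21, 23, 24 and 26 of the 27 genes above all 8 wild type and Fshr-CAM arrays, where 30.4%, 20.2%, 18.6% and 22.1% of all genes were, and these counts too only describe the choice. Replicate 4 was the highest of all 17 arrays for 15 of the 27, replicate 2 for 7, replicate 1 for 5 and replicate 3 for 0.

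Among the dynein genes, Dynlrb2, a light chain of the roadblock class, had 10.76, 8.98, 9.85 and 11.36 on the Lhr-null arrays. On the Fshr-CAM/Lhr-null arrays it had 4.85, 4.62, 6.59, 4.88 and 4.58, on the Fshr-CAM arrays 5.01, 4.84, 5.12 and 5.26, and on the wild type arrays 4.80, 4.55, 5.26 and 5.33. The Lhr-null arrays did not overlap any other group, and the mean of replicates 2 to 4 was 33.8-fold that of wild type. Dnali1, a light intermediate chain of the inner arm, had 8.87, 7.63 and 9.25 on Lhr-null replicates 2 to 4 but 4.61 on replicate 1, against 4.55 to 5.11 in wild type. Dnah5, a heavy chain of the outer arm, was detected on Lhr-null replicates 3 and 4 alone, at 5.12 and 6.55.

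Of the radial spoke head genes, Rsph4a had 5.83, 4.60, 7.84 and 9.52 on the Lhr-null arrays, against 4.43 to 4.73 in wild type. Replicate 2 lay inside the wild type range, although it carried much signal for other axoneme genes. Rsph1, of the same spoke head, had 9.91, 12.07, 8.97 and 10.67 on the Lhr-null arrays, against 7.66, 8.51, 8.10 and 7.87 in wild type, and was highest on replicate 2. Rsph9, the third spoke head gene, differed least, with 9.95, 9.29, 8.34 and 9.46 on the Lhr-null arrays, against 7.81 to 8.40 in wild type. The 3 genes of 1 structure thus ranked the 4 Lhr-null arrays in different orders.

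Of the central pair genes, Spag6l was at 7.31, 9.28, 6.84 and 8.90 on the Lhr-null arrays, against 4.30 to 4.42 in wild type, at least 10.5-fold higher over replicates 2 to 4. That bound sets the Lhr-null mean against the lowest signal detected on each wild type array, since Spag6l was not detected on them. Spag16, also of the central pair, was at 7.0 on Lhr-null replicate 2 and at 4.67, 4.65 and 5.02 on replicates 1, 3 and 4. Hydin, a large central pair protein, was at 6.09 on replicate 4 and 4.62 to 4.89 on the others, against 4.70 to 4.98 in wild type. Spag17 and Spef2 were detected on no array.

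Of the genes for proteins in or on the doublet microtubules, the tektin gene Tekt1 had 9.33, 8.48, 7.43 and 9.25 on the Lhr-null arrays, against 4.71 to 5.29 in wild type. Cfap45 had 6.01, 8.42, 6.97 and 8.92, against 5.18 to 6.09 in wild type, so replicate 1 overlapped wild type. Mns1, which is also expressed in meiotic cells, had 9.16, 10.66, 9.43 and 10.15, against 8.06 to 8.34 in wild type. Ccdc39, which with Ccdc40 sets the repeat length of the axoneme, had 6.45, 6.78, 6.21 and 6.98, against 4.68 to 4.99 in wild type. Fam166c and Mdh1b, a relative of the malate dehydrogenases, were at least 8.42-fold and 15.1-fold higher over Lhr-null replicates 2 to 4 than in wild type. Ccdc113 was at least 6.43-fold higher, and Cfap299 9.67-fold.

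Among the regulators, Foxj1 and Rfx3 differed little and Rfx2 by more. Foxj1, the master regulator of motile cilia and a defining marker of multiciliated cells, had 5.10, 4.78, 4.90 and 6.23 on the Lhr-null arrays, against 5.50, 5.37, 5.13 and 5.21 in wild type. Only replicate 4 lay above the 8 wild type and Fshr-CAM arrays. Rfx3 was at 6.72, 5.33, 5.71 and 5.50 on the Lhr-null arrays, against 5.31 to 5.84 in wild type. Rfx2, which also acts in spermatids, was at 9.44, 9.74, 8.21 and 9.41, against 7.06 to 7.61 in wild type. The adenylate kinase genes Ak8 and Ak7 differed by 2.50 and 1.03 log2, and Ak7 lay at 4.33 on replicate 1, below all wild type arrays. For 1110017D15Rik the 3 kept probes differed by 2.07, 2.91 and 3.87 log2, the brightest by least. Kept second probes of Tekt1, Ccdc39 and Rsph9 differed by 3.15, 1.44 and 0.59. Probes that failed the filter differed by 0.01 to 0.06 for Kndc1, 0.16 for Dnali1, -0.09 for Fam166c and 1.95 for Ovgp1, the last detected on 2 arrays. Such probes differed by 0.31 and 1.67 for Spag6l, the latter detected on 2 arrays, 0.25 for Rfx2, 0.08 for Ak7 and -0.02 to 0.24 for Ccdc39. The values given for Kndc1, Dnali1, Fam166c, Spag6l, Rfx2, Ak7 and Ovgp1 thus rest on 1 probe each.

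The 10 genes with a probe that were not tested were Ccdc40, Spag16, Spag17, Spef2, Hydin, Lrriq1, Iqcg, Cfap52, Dnah5 and Dnah9, and 4 of these were detected on no array. Cfap52 had 4.42, 6.56, 5.46 and 6.73 on the Lhr-null arrays, against 4.35 to 4.52 in wild type, at least 2.46-fold higher over replicates 2 to 4. Ccdc40 had 6.10 on replicate 4 and 4.62 to 5.31 on the others, against 4.33 to 4.43 in wild type.

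Ovgp1 had 7.2, 6.77, 11.30 and 13.33 on the Lhr-null arrays, against 6.48, 6.23, 7.09 and 7.42 in wild type. It was at 6.30, 6.39, 10.46, 6.63 and 6.82 on the Fshr-CAM/Lhr-null arrays and at 6.34 to 6.70 on the Fshr-CAM arrays. Ovgp1 thus stood out on 3 arrays, Lhr-null replicates 3 and 4 and Fshr-CAM/Lhr-null replicate 3, and lay inside the wild type range on Lhr-null replicates 1 and 2.

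The sperm genes had another order. Prm1 had 9.63, 12.15, 8.98 and 10.22 on the Lhr-null arrays, against 4.93, 5.10, 8.72 and 7.70 in wild type, and 7.98 on Fshr-CAM replicate 4. Ldhc had 13.30 on Lhr-null replicate 2 and 4.93, 6.65 and 6.79 on replicates 1, 3 and 4, against 5.41 to 6.40 in wild type. Both were highest on replicate 2, Ldhc on that array alone and Prm1 with signal on the other 3 Lhr-null arrays too.

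**Figure D3:**
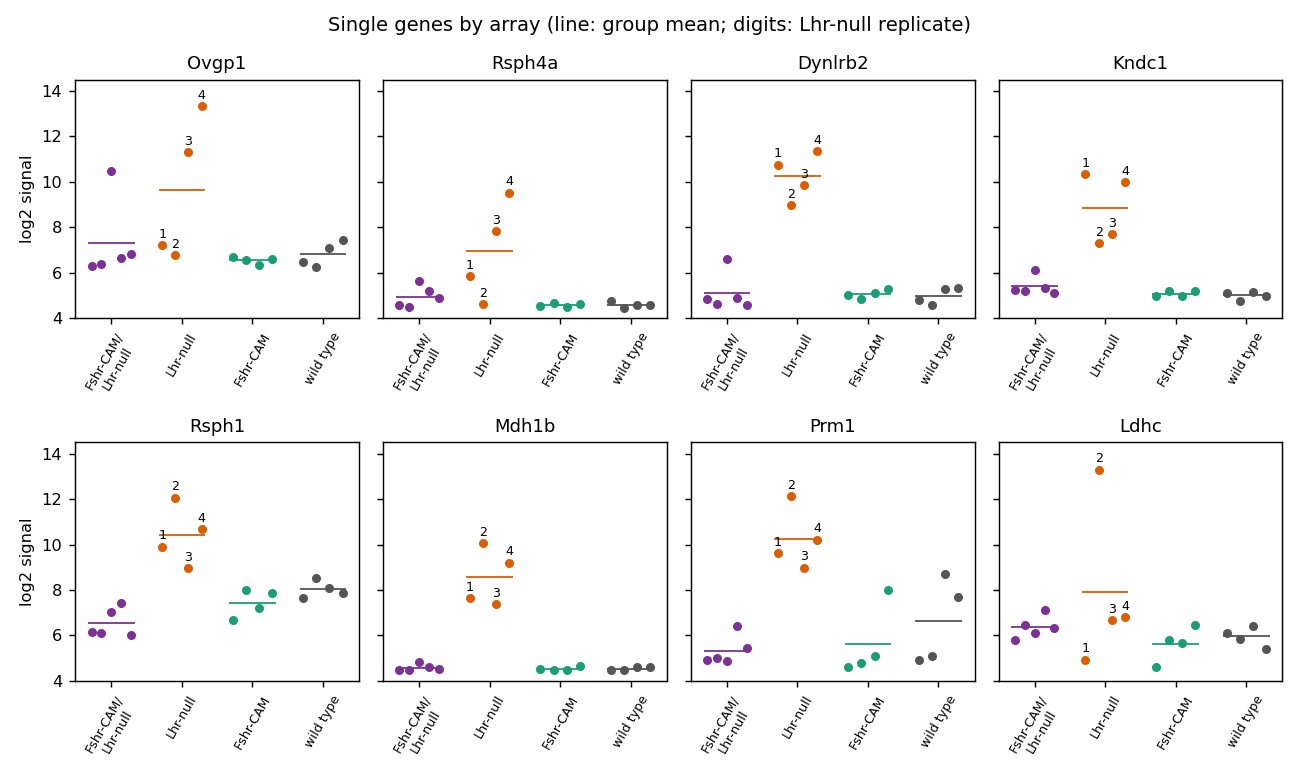
Log2 signal (vertical axis) of 8 genes on each array (points) by genotype (horizontal axis), with the group mean as a line and the Lhr-null replicate number beside its point. Rsph4a and Ovgp1 each lie inside their wild type range on Lhr-null 2, Rsph1 and Mdh1b peak there as Prm1 and Ldhc do, and Dynlrb2 and Kndc1 are high on all 4.

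A gene was said to follow Ovgp1 where Lhr-null replicate 4 exceeded replicate 2 by at least 1 log2, and to follow Prm1 and Ldhc where replicate 2 exceeded both 3 and 4 by at least 1. The rule rests on single arrays whose contents were known, so it is a description with no test. It is looser for Ovgp1, where replicate 3 is left free, so the counts of the classes cannot be set against each other. The motile cilia genes were also chosen for high signal on these arrays, so their shares cannot be read against those of all genes. Of the 37 genes, 13 followed Ovgp1, itself included, 3 followed the sperm genes and 21 neither. Among the 27 tested genes the counts were 11, 2 and 14. Over all 12260 genes, 3.15% followed Ovgp1 and 2.41% the sperm genes.

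By this rule, which sets only replicate 4 against 2, Dynlrb2, Fam183b, Kndc1, Pifo, Rsph4a, Tppp3, Fam166c, Foxj1, 1110017D15Rik, Hydin, Cfap126 and Dnah5 followed Ovgp1. Unlike Ovgp1 (6.77 and 11.30 on replicates 2 and 3), Pifo (7.88 and 7.85), Fam166c (7.58 and 7.23) and 1110017D15Rik (9.22 and 8.88) were not higher on replicate 3. Foxj1 and Hydin, at 4.90 and 4.89 on replicate 3, did not exceed the wild type range there. Rsph4a, at 4.60, and Dnah5, at 4.43, were as low on replicate 2 as in wild type, which Ovgp1 also was. Dynlrb2, Kndc1 and Fam183b differed from Ovgp1 in being raised on replicate 2, at 8.98, 7.30 and 8.93, and high on replicate 1, at 10.76, 10.34 and 12.24, where Ovgp1 was at 7.2. The order on replicates 2 and 4 was therefore shared without the whole pattern being so.

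Ccdc113, Rsph1 and Spag16 had the order of Prm1 and Ldhc. Ccdc113, whose protein lies at the ciliary base, was at 8.91 on replicate 2, against 6.32 and 7.68 on replicates 3 and 4. Nearest to the limits were 1110017D15Rik, inside at 1.32, and Iqcg, outside at 0.81, for Ovgp1, and Ccdc113, inside at 1.23, and Mdh1b, outside at 0.84, for the sperm genes. Spag6l, Ak8, Mns1 and Rfx2 were also higher on replicate 2 than on 4, by 0.33 to 0.64.

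The proportions between arrays were then taken for each probe, as its linear signal above the median of the 8 wild type and Fshr-CAM arrays in percent of that on Lhr-null replicate 4. This measure was chosen after the data were seen. It used the 24 tested genes other than Ovgp1 that were detected on replicate 4 at least 1 log2 above that median. Foxj1, at 0.99 above it, and Rfx3, at 0.10, were left out by this limit. On Lhr-null replicate 3 the 24 genes held a median of 26.1%, between 18.1% and 48.0%, and Ovgp1 held 23.7%. On replicate 2 they ranged between 0.0829% for Rsph4a and 290% for Rsph1, with a median of 64.3%, and Ovgp1 held 0.135%. On replicate 1 the range was from below 0 to 163%, highest for Fam183b, with a median of 31.5%, and Ovgp1 held 0.511%. The range was thus narrow on replicate 3, which like replicate 4 had high Ovgp1, and wide on replicates 1 and 2.

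**Figure D4:**
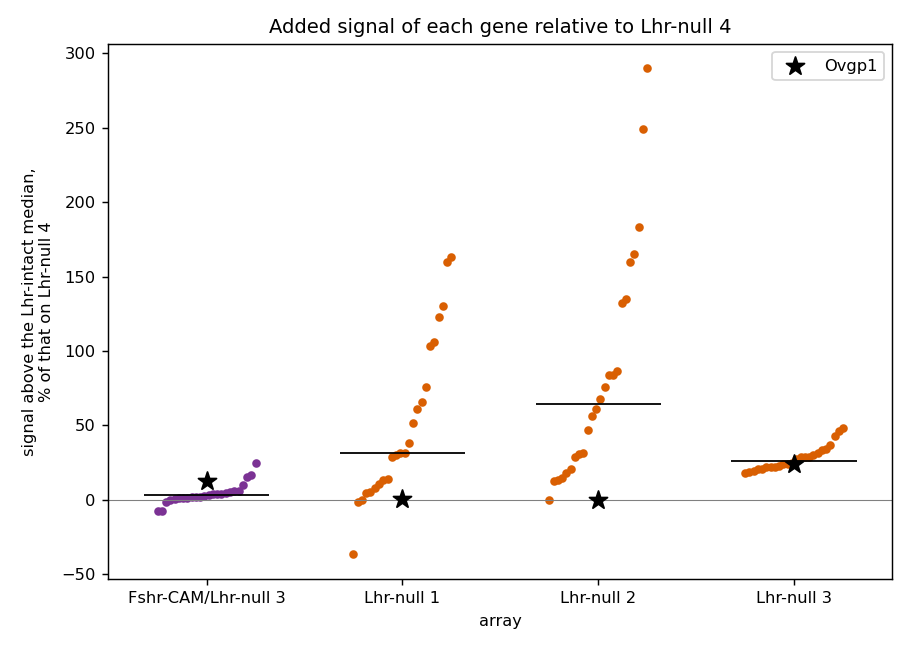
Linear signal above the median of the wild type and Fshr-CAM arrays on 4 arrays (horizontal axis), in percent of that on Lhr-null 4 (vertical axis), for 24 motile cilia genes (points, line at the median) and Ovgp1 (star). On Lhr-null 3 the points lie between 18.1% and 48.0% with Ovgp1 among them at 23.7%, and on Lhr-null 1 and 2 they spread widely while Ovgp1 lies near 0, with Ak7, Dnali1 and Cfap299 below it on Lhr-null 1 and Rsph4a below it on Lhr-null 2.

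Of the oviduct and epithelial list, 21 genes had a probe, and 12 to 14 were detected on Fshr-CAM/Lhr-null and 11 to 16 on Lhr-null arrays, against 13 or 14 on wild type arrays. The summed signal was 1663 to 2230 in Fshr-CAM/Lhr-null, 1702 to 8647 in Lhr-null, 1414 to 1644 in Fshr-CAM and 1448 to 1802 in wild type ovaries. On the Lhr-null arrays it was highest on replicate 4, at 8647, then 1, at 7995, 3, at 2805, and 2, at 1702. Replicate 2 was thus within the wild type range. Replicate 1, the array with pituitary signal, detected 11 of the 21 genes, against 16 on replicate 4. Ovgp1, which is not on this list, was at 7.2 on replicate 1, inside the wild type range. Ltf, the lactoferrin gene, named after its values were seen, had 9.12 and 11.65 on Lhr-null replicates 3 and 4 and 5.42 and 5.28 on replicates 1 and 2. Fshr-CAM/Lhr-null replicate 3 had 7.52, against 6.53 to 7.34 in wild type. Pax8, the transcription factor taken as a defining marker of oviduct secretory cells and also named after its values were seen, was at 4.72 to 5.16 on Fshr-CAM/Lhr-null, 4.74 to 5.27 on Lhr-null and 4.68 to 4.98 on wild type arrays, near background throughout. Adipocyte genes were called higher in Lhr-null than in wild type ovaries in 5 of 6 tested, where limma at an adjusted p under 0.05 called 5.69% of all genes higher and 6.84% lower. Their summed signals were 2711 to 3830 in Fshr-CAM/Lhr-null, 3655 to 4652 in Lhr-null, 2355 to 4404 in Fshr-CAM and 2142 to 2568 in wild type ovaries. The Lhr-null range thus overlapped those of both Fshr-CAM groups, and its 4652 was on replicate 1, left out of the fits. Of the 6 adipocyte genes, 4 were called without any 1 of Lhr-null replicates 2 to 4. Of 7 surface epithelium and mesothelium genes 0 were called higher and 1 lower, and that call was lost without Lhr-null replicate 3 or without replicate 4. The part of oviduct, fat, sperm or pituitary RNA in the signal of the motile cilia genes was not tested.

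Whether loss of Lhr moved these genes where Fshr-CAM was present was tested between groups other than those that chose them. Lhr-null replicates 2 to 4, which did choose them, still entered the spread of the main fit. Of the 27, Mdh1b, Spag6l, Ccdc113, Spaca9 and Fam166c were detected on none of the 9 arrays compared, so a difference near 0 was fixed for these 5 and the comparison can inform on the other 22. None of the 27 genes was called between Fshr-CAM/Lhr-null and Fshr-CAM ovaries by limma at an adjusted p under 0.05, where 0.44% of all genes were called higher and 1.64% lower (54 and 201 genes, or 19 and 583 with median-centred signals and no background correction). At an unadjusted p under 0.05 there was 1. The differences ran between -0.89 and 0.87 log2 with a median of 0.16, against 0.02 over all genes, and over the 22 genes the median was 0.21, with 17 above 0. The counts of genes called higher and called lower each stayed 0 in all 27 alternatives, including those without the library labelled Fshr-CAM/Lhr-null replicate 4 and those fitted on these 2 groups alone.

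Tppp3, of the tubulin polymerisation promoting family, was the 1 gene at an unadjusted p under 0.05. It had 7.77, 7.84, 7.85, 6.73 and 7.10 on the Fshr-CAM/Lhr-null arrays, against 6.22, 6.87, 6.79 and 6.49 on the Fshr-CAM arrays, and 4 of the 5 lay above all Fshr-CAM arrays. The difference was 0.87 ± 0.36 log2 (SE), with a limma p of 0.0275 and an adjusted p of 0.215, and over the alternatives the adjusted p lay between 0.0966 and 0.526. Rsph1 lay lowest, with 6.16, 6.11, 7.03, 7.40 and 5.99 on the Fshr-CAM/Lhr-null arrays, against 6.67, 8.0, 7.18 and 7.87 on the Fshr-CAM arrays, an overlap. Its difference was -0.89 ± 0.49 log2 (SE, limma adjusted p = 0.362).

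The intervals of genes detected on all 9 arrays, which were 11, show what these arrays could have missed. For Fam183b the difference between Fshr-CAM/Lhr-null and Fshr-CAM was 0.66 log2 (95% interval -0.19 to 1.51), for Kndc1 0.32 (-0.51 to 1.15) and for Ak8 0.28 (-0.30 to 0.86). Dynlrb2, detected on 1 Fshr-CAM/Lhr-null and 3 Fshr-CAM arrays, differed by 0.05 (-0.88 to 0.97). The 2 contrasts are set side by side here, and the difference between them was not tested because the Lhr-null one chose the genes. For Ovgp1 the interval was wide, -1.41 to 2.96 around 0.77, and without Fshr-CAM/Lhr-null replicate 3 the difference was -0.01 ± 0.91 (SE, limma adjusted p = 0.997). In simulated data at this size, 98 of 100 genes raised by 2 log2 and 70 of 100 raised by 1 were recovered. The raised genes were drawn from all 12260 genes, each with its own spread. The shares therefore do not hold for genes with a wide spread in the fit, such as Kndc1 (SE 0.39), Rsph4a (0.63) and Ovgp1 (1.03), where larger differences can be missed. That spread was widest on Lhr-null replicates 2 to 4. The standard deviation for Kndc1 was 1.44 there, against 0.41 on the Fshr-CAM/Lhr-null and 0.13 on the Fshr-CAM arrays. For Rsph4a it was 2.50, against 0.46 and 0.08, and for Ovgp1 3.36, against 1.77 and 0.15.

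**Figure D5:**
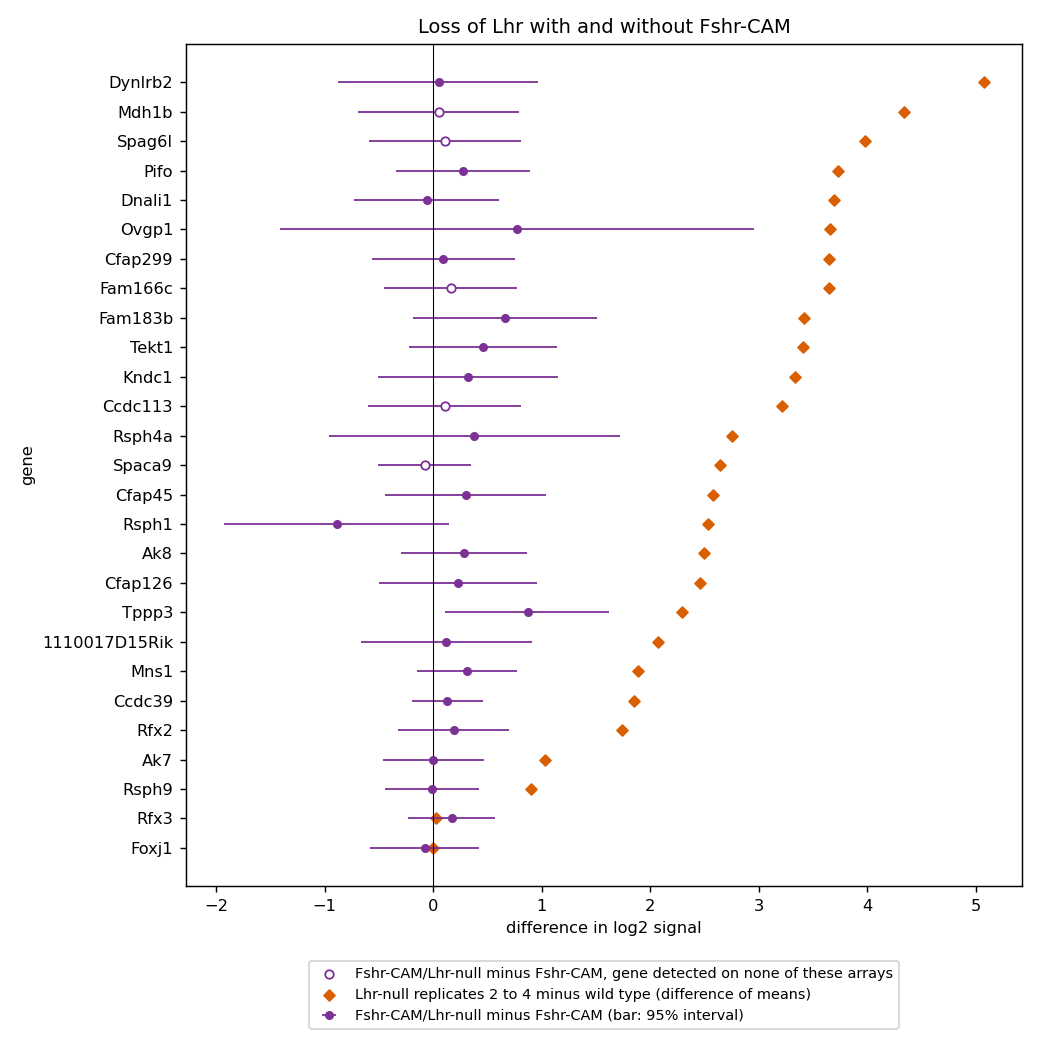
Difference in log2 signal (horizontal axis) for each of the 27 tested genes (rows): Fshr-CAM/Lhr-null minus Fshr-CAM with its 95% interval (circles, open for the 5 genes detected on none of these arrays) and Lhr-null replicates 2 to 4 minus wild type with no test (diamonds). The circles lie between -0.89 and 0.87, and the diamonds reach 5.08.

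Single Fshr-CAM/Lhr-null arrays differed. Of the 27 genes, 15 on replicate 3 lay above all 8 wild type and Fshr-CAM arrays, where 21.2% of all genes did. On the library labelled replicate 4 there were 12, where 24.7% of all genes did, and its Fshr of 9.71 lay near the 9.13, 9.72 and 9.90 of Lhr-null replicates 2 to 4. On replicates 1, 2 and 5 the counts were 5, 3 and 3, where 14.3%, 15.4% and 15.9% of all genes did. These counts include genes detected on no Fshr-CAM/Lhr-null array, whose ranks are those of background. Among them were Mdh1b, Spag6l and Fam166c on replicate 3, at 4.80, 4.78 and 4.90. On the library labelled replicate 4 they included Spag6l and Ccdc113, at 4.47 and 4.85. Replicate 3 was the highest of the 5 for 14 of the 27 genes, Mdh1b, Spag6l and Fam166c included, and was the array with high Ovgp1. Against Lhr-null replicate 4, the genes other than Ovgp1 held a median of 2.91% of the added signal there, between -7.85% and 24.9%, with Tppp3 highest, and Ovgp1 held 12.9%. Ovgp1 therefore stood above 21 of the 24 other genes on this array in its share.

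In Fshr-CAM against wild type ovaries, which share the wild type arrays with the Lhr-null contrast, 0 of the 27 genes were called by limma, 5 of them (Mdh1b, Spag6l, Ccdc113, Rsph4a and Fam166c) detected on none of these 8 arrays, where 0.171% of all genes were called higher and 0.0326% lower. At an unadjusted p under 0.05 there were 2. Dnali1 was at 4.84, 6.02, 5.88 and 5.71 on the Fshr-CAM arrays, against 4.81, 5.11, 5.10 and 4.55 in wild type (difference 0.72 ± 0.33 log2, SE, limma adjusted p = 0.813), and Rsph9 at 7.37 to 7.82, against 7.81 to 8.40 in wild type (-0.46 ± 0.21, limma adjusted p = 0.822). Differences ran between -0.60 and 0.72 with a median of -0.01, against 0.00 over all genes.

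Other genes of the axoneme were taken from lists written from general knowledge with earlier results of these data known. The filter can be passed on the 4 Lhr-null arrays alone, so a high value there may have been required for some listed genes to be tested. Of 18 genes with a probe on the radial spoke and central pair list, 8 were detected on each wild type array and 11 to 13 on the Lhr-null arrays. The counts of these and the later lists are thus a description. In Lhr-null replicates 2 to 4 against wild type, limma called 5.69% of all genes higher and 6.84% lower. Of the 12 tested genes on the radial spoke and central pair list, 6 rose and 0 fell, with a list median of 1.05 log2. The place of each listed protein in the axoneme was not checked, so some may belong to another structure. The called genes, chosen after their values were seen except Dnajb13, were Cfap206, Nme5, Cfap70, Dydc2, Dnajb13 and Wdr78, and Cfap206 differed most, at 3.25 ± 0.45 log2 (SE, limma adjusted p = 0.00028). Nme5 had 9.25, 9.38, 8.52 and 9.93 on the Lhr-null arrays, against 6.05 to 6.56 in wild type, with no overlap. Without replicate 2 the count was also 6 of 12.

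Dynein arm and docking genes rose in 4 of 10 tested and fell in 0 (median 0.76 log2), and the count was 3 without replicate 2 and 2 without replicate 4. Dynein arm assembly genes rose in 3 of 8 and fell in 1 (median 0.47), with 1 higher without replicate 2 or without replicate 4. Intraflagellar transport genes, which build both motile and non-motile cilia, rose in 9 of 19 by 0.24 to 0.80 log2 and fell in 0 (median 0.36), with 4 without replicate 2 and 3 without replicate 4. Of the 10 tested regulators of multiciliated cells, 1 rose, Rfx1, named for its call, by 0.59 ± 0.18 log2 (SE, limma adjusted p = 0.0448), while without replicate 2 the counts were 0 higher and 0 lower and without replicate 4 they were 0 and 1. The sperm and spermatid list rose in 4 of 12 (Prm1 and, named for their calls, Tnp1, Oaz3 and Spata19, with a median of 1.22), with 3 without replicate 2, 8 without replicate 3 and 5 without replicate 4, and the oviduct and epithelial list in 2 of 15 (Krt8 and, named for its call, Muc1, with a median of 0.82), with 6 without replicate 2 and 1 without replicate 3 or replicate 4.

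In Fshr-CAM/Lhr-null against Fshr-CAM these 7 lists held 0 genes called higher and 1 called lower among 86 tested, or 1.16%, where 0.44% of all genes were higher and 1.64% lower, so the count was not above that of all genes. Without Lhr-null replicate 4, which enters the estimate of the spread, 1 gene of the oviduct and epithelial list was called higher too. The gene called lower, Spag1, needed for the assembly of dynein arms, had 7.21, 7.44, 7.36, 7.10 and 6.81 on the Fshr-CAM/Lhr-null arrays, against 8.89, 9.04, 8.13 and 8.55 on the Fshr-CAM arrays. The groups did not overlap, and the difference was -1.47 ± 0.22 log2 (SE, limma adjusted p = 0.00179), with adjusted p between 0.000401 and 0.0256 over the alternatives. It was also lower in Lhr-null than in wild type ovaries, with 7.72, 7.06 and 7.17 on replicates 2 to 4, against 8.61, 9.26, 9.04 and 8.38 in wild type (-1.51 ± 0.25, limma adjusted p = 0.00131). Spag1 thus fell where Lhr was lost in both backgrounds. Dnah11, a heavy chain of the outer arm, and Dnajb13, of the radial spoke, were the nearest of the other named genes, at 0.70 ± 0.21 and 0.98 ± 0.29 log2 (limma adjusted p = 0.105 and 0.0976).

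Genes with the most similar pattern were sought over all 17 arrays by the mean absolute difference of their excess over the wild type and Fshr-CAM median. Nearest to Ovgp1 were A2ml1 (0.536 log2), Ecrg4 (0.551), Plekhs1 (0.576), Odf3b (0.65) and Cdhr3 (0.666). Ecrg4 had 6.51, 8.53 and 12.17 on Lhr-null replicates 2, 3 and 4, reached 10.99 on Fshr-CAM/Lhr-null replicate 3, and so shared with Ovgp1 the high value on that array. Nearest to the median motile cilia gene were Drc3 (0.167), Cfap65, Cfap157, Tsnaxip1 and Lrrc18 (0.226). Nearest to Prm1 were Cabs1 (1.03), Catsperz, Enkur, Capsl and Nme5 (1.16), and the match was loose. Cabs1 and Catsperz were highest on Lhr-null replicate 2, as Prm1 was, at 8.98 and 11.15. Enkur and Capsl were at 6.87 and 5.11 there and at 8.35 and 9.25 on replicate 4, so they did not share the peak of Prm1. Nme5 too was lower on replicate 2, at 9.38, than on replicate 4, at 9.93.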

How the data were processed

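Expression was measured on 17 arrays of ovaries, grouped by the genotype in the labels. Per the submitters' processing notes, the authors used GenomeStudio 1.7.0. Their deposited non-normalised table holds, per the file headers, a signal intensity and a detection p-value for each of 45281 probes and array, with the number of beads behind each (medians 41 to 43). A deposited quantile-normalised intensity table served as an alternative.

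From these, log2 signals were computed over all 17 arrays by neqc (offset 16), a function of limma 3.58.1 run in R 4.3.3. Of 34885 probes with 1 gene symbol in the platform annotation, which can be old, the brightest kept probe represented each of 12260 genes. Of the 27 tested motile cilia and oviduct genes, 12 had several probes. Limma with an intensity trend was fitted to 16 arrays, without Lhr-null replicate 1, with 1 mean per genotype and Benjamini-Hochberg adjustment over all genes at 0.05. All 17 arrays entered the filter and the normalisation. The number of arrays limits precision. The fit was tested on simulated data.

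The genes, lists, arrays left out and order rule were chosen with earlier results of these data known. Any gene of the 40 may be named, and of each other list up to 3 genes past the threshold in Fshr-CAM/Lhr-null against Fshr-CAM, or else the 2 brightest. Other genes are marked where named, except those found by likeness, the 5 nearest by a set measure. Besides the 40 genes, 12 lists were used: dynein arms and docking, dynein arm assembly, radial spoke and central pair, multiciliated cell regulators, intraflagellar transport, oviduct and epithelial, sperm and spermatid, pituitary, Y-linked, adipocyte, surface epithelium and mesothelium, and ovary. Promoter motifs were searched with Python 3.11.15. Array replicate numbers were not used to pair samples in the main fit, and whether they mark pairs was not settled. Same-numbered arrays deviated together with correlations of 0.05 to 0.319 in Fshr-CAM/Lhr-null and Fshr-CAM. The correlations were -0.0566 to 0.188 in Fshr-CAM and wild type, and -0.132 to 0.128 in Lhr-null and wild type.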

Additional observations from a re-analysis of the deposited data

Results flagged for a closer look

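In 148 groups of 4 or 5 arrays, the highest and lowest array was set against the others of its group, and 5 stood apart, where chance gives about 1 in 20 groups. On Fshr-CAM/Lhr-null replicate 3, Ovgp1 was at 10.46 log2, against 6.30 to 6.82 on the other 4 arrays of the group. On the same array Dynlrb2 was at 6.59, against 4.58 to 4.88, and Kndc1 at 6.10, against 5.08 to 5.33. Spag16 was at 7.0 on Lhr-null replicate 2, against 4.65 to 5.02 on the other 3. Ccdc39 was at 5.08 on Fshr-CAM replicate 4, against 4.66 to 4.70.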

How the results depend on the processing

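The count of motile cilia and oviduct genes called higher, and the count called lower, between Fshr-CAM/Lhr-null and Fshr-CAM, and between Fshr-CAM and wild type, were 0 in the 27 alternatives run for each. Leaving out 1 array at a time, their median difference was 0.12 to 0.23 log2 and -0.06 to 0.02 in these comparisons and 2.34 to 3.15 in Lhr-null against wild type. The counts over all genes moved more, and their causes were not tested. In Fshr-CAM/Lhr-null against Fshr-CAM (54 higher and 201 lower), all 17 arrays gave 2 and 89, and median-centred signals gave 19 and 583. Higher calls were 28 with no detection filter, 115 with array weights and 29 with these groups alone. Single arrays left out gave 12 to 221 higher (221 without Fshr-CAM replicate 4, 18 without Fshr-CAM/Lhr-null replicate 3) and 130 to 283 lower, and 15 arrays, also without the library labelled Fshr-CAM/Lhr-null replicate 4, gave 25 higher. In Fshr-CAM against wild type (21 and 4), higher calls were 3 with all 17 arrays, 38 with 15 arrays, 13 with median-centred signals, 41 with array weights and 6 with these groups alone. Lower calls were 19 with array weights, 2 with the replicate block and 0 with these groups alone, and single arrays left out gave 8 to 38 and 0 to 19. In Lhr-null against wild type (698 and 838), all 17 arrays gave 314 and 547, these groups alone 444 and 533, median-centred signals 419 higher and the replicate block 464 higher. Single arrays left out gave 369 to 878 and 521 to 953. The replicate block called 0 of the 27 genes, higher or lower, in both tested comparisons. Genes following Prm1 and Ldhc were 2 of 27 tested and 1 with median-centred signals or with neqc on 16 arrays. Slide as a block was not run, since the sources used here name no slide. Genes at background have only a bound. A difference under about 1 log2, or a larger one in a gene with a wide spread, can be missed at this number of arrays.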
